A study of Homo sapiens with 6 samples.

Results

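The comparison described here is that of K562 cells lacking silencer 1 and silencer 2 (DKO) with K562 cells that received the empty vector (EV), read as the contacts of the gene FGF18. It takes 4 of the 6 4C-seq libraries of the series, 2 for DKO and 2 for EV. They were chosen by their labels, and the profile was read within 2 Mb of the viewpoint fragment chr5:170851908-170853009 (hg19). Of 917 HindIII fragments with a read there in any of the 6 libraries, 895 had a read in EV or DKO. K562 is a human chronic myeloid leukaemia cell line. The DKO cells were made by CRISPR excision of the silencer1 and silencer2 regions, and the EV cells went through the same procedure with the empty vector and are labelled untreated. EV and DKO cells grew in the same medium with serum. The labels give no positions for the silencers, and do not say whether the DKO cells are 1 clone or a pool, or whether replicates came from separate cultures. The p-values below therefore weigh differences against the scatter of these few libraries alone, and that scatter may be only technical. In these data the excision cannot be told apart from other features of the edited cells.

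Silencers are DNA elements that lower the transcription of genes they contact, and some lie within chromatin marked by H3K27me3, the product of Polycomb repressive complex 2. Such elements reach their genes by looping, and removing one can change which other segments a gene touches. 4C-seq fixes chromatin with formaldehyde, cuts it and joins ends that lay close, so that all fragments joined to 1 chosen fragment, the viewpoint, can be amplified and sequenced. A contact profile usually falls with distance from the viewpoint on both sides, and a local bulge marks a segment touched more often than its distance alone would give. FGF18 encodes fibroblast growth factor 18, a secreted ligand of FGF receptors known for roles in cartilage and bone growth.

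The viewpoint lies in FGF18. In the gene order of the RefSeq annotation of GRCh38.p14, the protein-coding genes on the centromeric side (called below) are, going outward, NPM1, TLX3, RANBP17, GABRP, KCNMB1, KCNIP1, LCP2, C5orf58, FOXI1, INSYN2B, DOCK2 and SPDL1. On the telomeric side (called above) they are SMIM23, FBXW11, STK10, EFCAB9, UBTD2, SH3PXD2B, NEURL1B, DUSP1 and, further out, NKX2-5. No table of hg19 gene positions was used, so statements that a stretch lies over a gene rest on general knowledge of the hg19 map and hold for the large genes named, not for exact borders.

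The promoter of the viewpoint gene and that of FBXW11 are shown to make plain what the assay can cut. FBXW11 is a large gene whose start falls in a stretch with a lower share of reads in DKO. Each is the 250 bases before the gene's start from RefSeq (GRCh38.p14), FGF18 at chr5:171419397-171419646 on the plus strand and FBXW11 at chr5:172006639-172006888 on the minus strand. These 2 positions are on another build than all other coordinates given here. Capitals mark cutting sites of HindIII (AAGCTT) or DpnII (GATC), which read the same on both strands.
FGF18: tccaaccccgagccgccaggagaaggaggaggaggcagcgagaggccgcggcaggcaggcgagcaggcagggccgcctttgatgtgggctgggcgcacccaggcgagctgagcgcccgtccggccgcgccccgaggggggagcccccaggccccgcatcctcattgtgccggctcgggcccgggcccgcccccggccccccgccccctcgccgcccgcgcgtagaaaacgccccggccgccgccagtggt
FBXW11: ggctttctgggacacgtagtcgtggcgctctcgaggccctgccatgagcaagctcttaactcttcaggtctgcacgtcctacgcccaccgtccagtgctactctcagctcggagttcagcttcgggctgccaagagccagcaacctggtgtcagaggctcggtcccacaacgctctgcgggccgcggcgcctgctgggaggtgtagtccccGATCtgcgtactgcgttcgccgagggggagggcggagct
The FGF18 stretch holds neither site and the FBXW11 stretch holds 1 DpnII site and no HindIII site. Of 35116 RefSeq promoter stretches of this length, 5.02% hold a HindIII site and 35.8% a DpnII site. A promoter is therefore mostly read through the HindIII fragment around it, where that fragment has reads. The unit of every value below is a HindIII fragment or a sum over several. No library lists a fragment in chr5:170840932-170851907 (hg19), the 10976 bases just below the viewpoint fragment. Whether the FGF18 promoter lies in this interval on hg19 was not tested, so it may not be read in these data.

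Values are given as reads per 1000 reads within 2 Mb, leaving out the fragments within 10 kb of the viewpoint. On this scale a rise in 1 place lowers the shares elsewhere. In all, the EV libraries held 708503 and 1919737 reads and the DKO libraries 1765929 and 1300415. The EV libraries held 68303 and 65464 reads within 2 Mb and the DKO libraries 241066 and 271861. Of the 917 fragments, 709 and 445 had a read in EV replicates 1 and 2, and 691 and 813 in DKO. The DKO libraries were thus deeper near the viewpoint, and EV replicate 2 read the fewest fragments. In a single library the 95% Wilson interval of a window share was at most 2.78 per 1000 wide on either side, which covers counting error of reads only, since reads made by PCR are not independent molecules. Replicates agreed in 50-kb windows with a median absolute log2 ratio of 0.48 in EV and 0.30 in DKO, and in single fragments read in both replicates of a group with 1.17 in EV and 0.83 in DKO.

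Above the viewpoint, DKO libraries had a larger share of their reads within 2 Mb close to the gene and a smaller share far from it. Reads within 2 Mb made up 9.64% and 3.41% of all reads in EV and 13.7% and 20.9% in DKO. A smaller share within 2 Mb therefore need not mean a smaller share of all reads. In EV, 50% of the reads above lay within 405 kb of the viewpoint in both libraries. In DKO, 50% lay within 161 kb in both libraries. The distances take only fragment midpoints as values, so equal values mean that the same fragment was reached. The distance that took in 75% of the reads above was 673 and 684 kb in the EV libraries and 430.0 and 493 kb in DKO. For 90% it was 1082 and 1067 kb in EV and 822 and 887 kb in DKO. At each of these 3 marks both DKO libraries lay nearer the gene than both EV libraries. Below the viewpoint the order was the opposite at 50%, with 89.4 and 62.1 kb in EV and 128 and 195 kb in DKO. At the other marks below, the groups did not separate. At 25% the distances were 18.3 and 25.5 kb in EV and 25.5 and 51.9 kb in DKO. At 75% they were 774 and 680 kb in EV and 734 and 839 kb in DKO. At 90% they were 1236 and 1155 kb in EV and 1185 and 1192 kb in DKO.

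**Figure D1:**
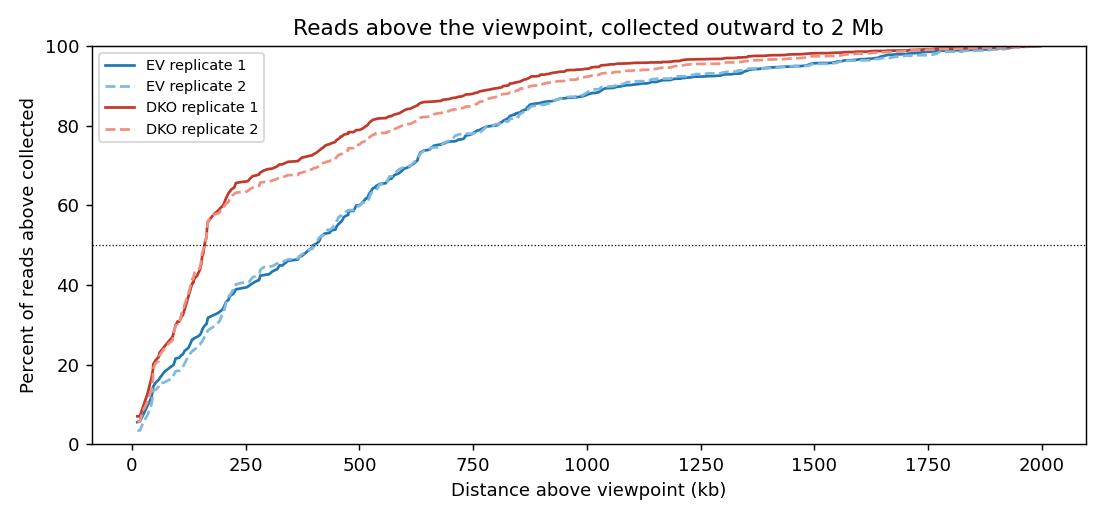
Percent of the reads above the viewpoint (10 kb to 2 Mb) collected going outward, against distance in kb, 1 line for each EV and DKO library. The DKO lines cross 50% at 161 kb and the EV lines at 405 kb.

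The profile in bands of distance showed the same exchange. Within 10 to 100 kb above, a band that holds the rest of FGF18 and the DNA beyond its end, the EV libraries held 139 and 112 reads per 1000 and the DKO libraries 173 and 171. From 100 to 250 kb above, the gene-poor DNA between FGF18 and SMIM23, EV held 114 and 136 and DKO 207 and 193. These means stood at 125 ± 16.0 in EV and 200.1 ± 9.48 in DKO (SD, n = 2 each). Both bands were higher in both DKO libraries than in either EV library. From 250 to 500 kb above, over SMIM23 (a small membrane protein) and part of FBXW11 (the substrate-binding F-box subunit of a ubiquitin ligase), EV held 134 and 118 and DKO 75.2 and 68.2. From 500 to 1000 kb above, which takes in STK10 (a protein kinase that phosphorylates ezrin, radixin and moesin), UBTD2 and most of SH3PXD2B (an adaptor of podosomes), EV held 178 and 173 and DKO 88.5 and 97.8. From 1000 to 2000 kb above, the stretch of DUSP1 (a phosphatase of MAP kinases) and NKX2-5 (a heart transcription factor), EV held 80.5 and 73.6 and DKO 33.2 and 45.0. In these 3 outer bands the DKO mean was 0.569, 0.531 and 0.508 times that of EV, and the libraries of the groups did not overlap.

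Below the viewpoint the bands beyond 100 kb were higher in DKO, by smaller shares of the reads but by ratios of 1.68, 1.73, 1.36 and 1.25 going outward, against 1.37 and 1.60 in the 2 gained bands above. From 100 to 250 kb below, over TLX3 (a homeobox factor of neurons that is switched on in some T-cell leukaemias) and the end of RANBP17 (a transport receptor of the importin family), EV held 42.4 and 34.2 and DKO 64.2 and 64.4. From 250 to 500 kb below, inside RANBP17, EV held 21.1 and 21.9 and DKO 31.2 and 43.1. From 500 to 1000 kb below, over GABRP (a GABA receptor subunit) and KCNIP1 (a potassium channel modulator), EV held 48.2 and 52.0 and DKO 62.8 and 73.1. From 1000 to 2000 kb below, over LCP2 (the adaptor SLP-76 of T-cell receptor signalling) and DOCK2 (a Rac activator of blood cells), EV held 63.6 and 56.7 and DKO 70.4 and 79.5. The band from 10 to 100 kb below, over NPM1 (nucleophosmin, a nucleolar chaperone), overlapped, with 180 and 222 in EV and 195 and 165 in DKO. In 9 of the 10 bands the groups did not overlap, and the exact two-sided permutation p was 0.33, below which a design of 2 against 2 cannot go. For the band over NPM1 it was 0.667. As a share of all fragments with a read within 2 Mb, the DKO mean was under the EV mean in all 5 bands above. The libraries then overlapped from 10 to 100, 100 to 250 and 1000 to 2000 kb above, and did not overlap from 250 to 1000 kb above. Below, both DKO libraries stayed higher on this measure from 250 to 500 and from 1000 to 2000 kb. The libraries overlapped from 100 to 250 kb below, at 60.6 and 56.2 per 1000 fragments in EV and 65.1 and 57.8 in DKO. They also overlapped from 10 to 100 kb below and from 500 to 1000 kb below. The totals behind these shares were 709 and 445 fragments in EV and 691 and 813 in DKO. The plain number of fragments with a read had the higher mean in DKO in all 5 bands above. From 500 to 1000 kb above it was 113 and 84 in EV and 105 and 119 in DKO. With the reads of a fragment capped, the DKO mean share of reads was under that of EV in both bands from 10 to 250 kb above.

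**Figure D2:**
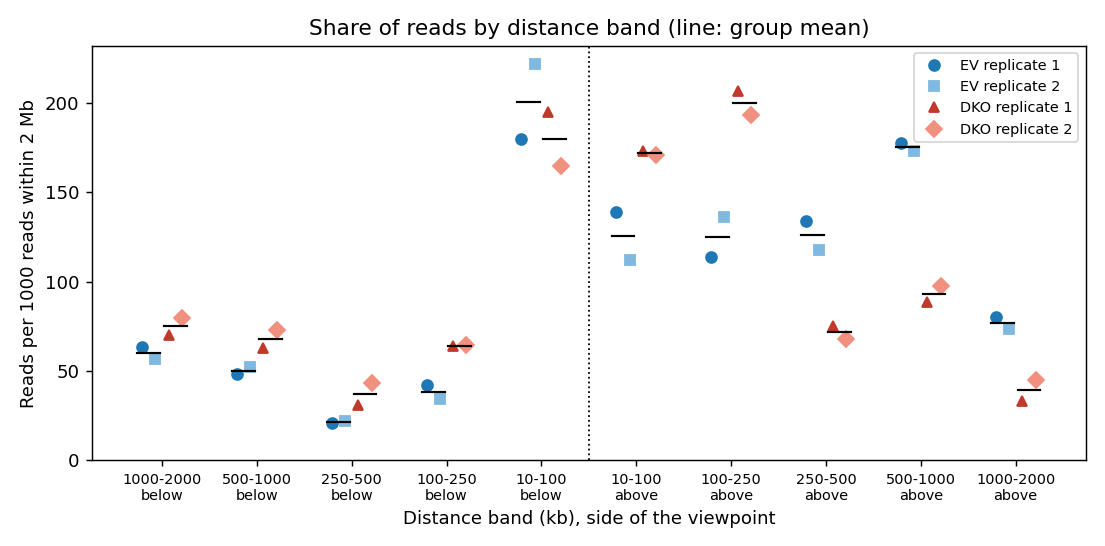
Reads per 1000 reads within 2 Mb in 10 bands of distance (kb) on either side of the viewpoint, each EV and DKO library as a point and each group mean as a line. From 100 to 250 kb above, both DKO points (207 and 193) lie over both EV points (114 and 136), and beyond 250 kb above the order turns.

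Windows of 50 kb place the change more closely. Of 80 windows within 2 Mb, 14 passed edgeR's quasi-likelihood test at a Benjamini-Hochberg adjusted p of 0.05 (17.5%), 6 higher in DKO (7.5%) and 8 lower (10%). In all 14 the EV and DKO libraries did not overlap, as was the case in 51 of the 80 windows (20 with both DKO libraries above, 25%, and 31 with both below, 38.8%). The 6 higher windows formed 1 run of 3 beside FGF18 and 3 single windows below. The 8 lower windows formed 1 run of 7 and 1 single window, all above. The split depends on the scaling, with 6 higher and 5 lower by TMM, 10 and 5 by DESeq2 size factors, 10 and 7 scaled to reads within 10 Mb and 12 and 0 scaled to all chr5 reads. With the last, the median window moved from log2 -0.21 to 0.30, and the 8 lower windows kept their sign at log2 -0.75 to -0.29 with none past the threshold (edgeR adjusted p 0.20 to 0.73). Without DKO replicate 1 the 14 calls fell to 4, and without DKO replicate 2 to 5. Without EV replicate 2 the higher windows fell from 6 to 3. The windows starting 100, 150 and 600 kb above were called whichever EV or DKO library was left out, and the other 11 each lost their call in at least 1 such fit.

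**Figure D3:**
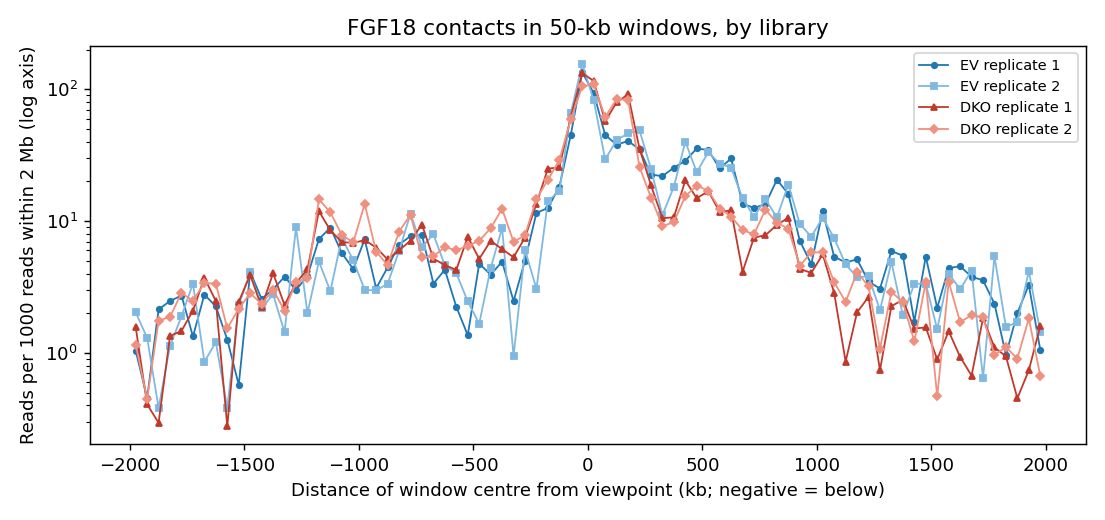
Reads per 1000 reads within 2 Mb (log axis) in each of 80 windows of 50 kb, against the distance of the window centre from the viewpoint in kb, 1 line for each EV and DKO library. The DKO lines lie over the EV lines from 50 to 200 kb above and under them from 350 to 700 kb above.

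The gained run, chr5:170902458-171052457, lies 50 to 200 kb above the viewpoint, between FGF18 and SMIM23. It held 124 and 117 reads per 1000 in the EV libraries and 228 and 229 in the DKO libraries. The means were 120.3 ± 4.73 and 229 ± 0.474 (SD, n = 2 each), a ratio of 1.90. The RefSeq order places 7 loci with provisional names between these 2 genes, among them LOC105377721, LOC105377722 and LOC105377724, and no protein-coding gene. The first window of the run, chr5:170902458-170952457, held 45.1 and 29.4 in EV against 57.1 and 61.4 in DKO, a log2 fold change of 0.67 with SE 0.22 (edgeR adjusted p = 0.018). Its call was lost with TMM (adjusted p = 0.063), without DKO replicate 1 (0.13) or 2 (0.20), and without EV replicate 2, where its log2 fold change was 0.40 (edgeR adjusted p = 0.23). The second, chr5:170952458-171002457, held 38.0 and 41.1 in EV and 79.7 and 84.3 in DKO. The third, chr5:171002458-171052457, held 40.5 and 46.4 in EV and 91.6 and 83.4 in DKO. The second and the third had nearly the same log2 fold change, 1.05 (SE 0.21) and 1.01 (SE 0.20), each with an edgeR adjusted p = 0.00016. The next window outward, chr5:171052458-171102457, held 35.1 and 48.8 in EV against 35.5 and 25.7 in DKO. Its log2 fold change of -0.45 with SE 0.23 did not pass the test (edgeR adjusted p = 0.13).

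Within the gained run the rise was spread over many fragments. Of its 33 fragments with a read in EV or DKO, 19 had both DKO libraries above both EV libraries, 1 had both below and 13 overlapped. Over all 895 fragments within 2 Mb, 22% had both DKO libraries above and 13.1% both below. No single fragment passed edgeR's test (0 of 789 tested, 0%; lowest adjusted p = 0.74; 46 with an unadjusted p under 0.05, 33 of them higher in DKO), while DESeq2 called 13. The fragment with the largest difference of mean share was chr5:171010438-171016070, 161 kb above, at 4.26 and 5.94 reads per 1000 in EV and 17.04 and 12.1 in DKO. It was followed by chr5:170983340-170987680, 133 kb above, at 13.8 and 7.90 in EV and 19.2 and 21.2 in DKO, and by chr5:170970838-170983335, 125 kb above, at 5.04 and 11.6 in EV and 18.7 and 15.9 in DKO. In the third window, the top fragment of EV, chr5:171017792-171021950, held 12.8% of the EV share. The top fragment of DKO was another, chr5:171010438-171016070, with 16.7% of the DKO share. No single fragment thus made up the window. With the top fragment of each window removed, the 3 windows stood at log2 0.66, 1.04 and 0.86.

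The gain ended between neighbouring fragments. The last fragment of the run with both DKO libraries above both EV libraries was chr5:171021955-171042009, which ends 190 kb above the viewpoint, at 4.06 and 5.45 reads per 1000 in EV and 10.0 and 8.75 in DKO. It closed a series of 5 adjacent fragments, chr5:171010438-171042009, all with both DKO libraries above. Together these 5 held 20.6 and 19.8 in EV and 57.2 and 51.7 in DKO, 2.70 times the EV mean. The 13 fragments that follow, chr5:171042014-171084341, all overlapped between the groups. Together they held 41.9 and 65.2 in EV and 45.8 and 31.9 in DKO. This edge was picked after its values were seen and has no test of its own. Whether a gene border, a CTCF site or another mark lies there was not tested.

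**Figure D4:**
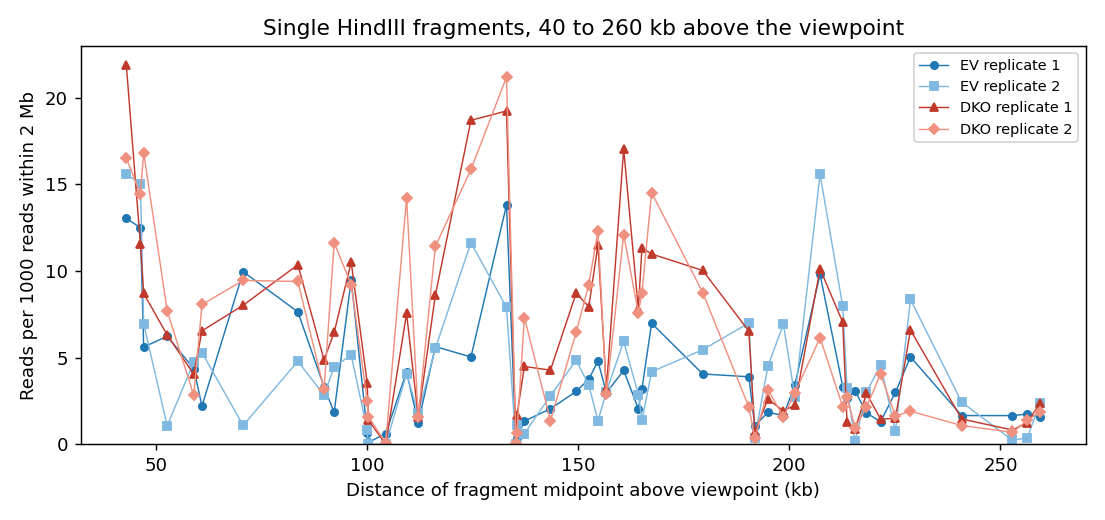
Reads per 1000 reads within 2 Mb of single HindIII fragments, against the distance of the fragment midpoint above the viewpoint (40 to 260 kb), 1 line for each EV and DKO library. The DKO lines exceed the EV lines at most fragments up to 180 kb and mix with them from 190.4 kb outward.

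The number of fragments with a read could hardly rise in the gained stretch. From 100 to 250 kb above, 34 and 32 of 35 fragments had a read in the EV libraries and 34 and 35 in DKO, so nearly every fragment was already read in both groups. The median reads per fragment with a read were 206.5 and 218.5 in EV and 1056.5 and 788 in DKO there, in libraries whose DKO reads within 2 Mb were also more numerous. Scaled to each library's total of fragments with a read, the 3 gained windows had log2 fold changes of -0.38, -0.20 and -0.38. All 8 fragments of the first window and all 12 of the third had a read in every EV and DKO library. Their 2 values thus come from the scaling alone and do not measure a change in the windows. In the second window 12 and 10 of 13 fragments had a read in EV and 12 and 13 in DKO. When each library's reads were cut off at its 90th percentile of reads per fragment, the log2 fold changes of the 3 windows were -0.06, 0.17 and -0.10. The cap touched 25 and 24 of the 33 fragments of this run in DKO and 17 and 10 in EV.

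The lost run, chr5:171202458-171552457, lies 350 to 700 kb above the viewpoint, from SMIM23 across FBXW11 into STK10. It is named for its lower share of reads within 2 Mb. It held 193 and 183 reads per 1000 in the EV libraries and 90.8 and 92.7 in the DKO libraries, means of 188 ± 7.20 and 91.8 ± 1.33 (SD, n = 2 each), a ratio of 0.489. The window over SMIM23, chr5:171202458-171252457, held 25.4 and 18.2 in EV against 10.7 and 9.82 in DKO. Its log2 fold change was -1.09 with SE 0.30 (edgeR adjusted p = 0.0053). The next, chr5:171252458-171302457, which reaches the end of FBXW11, held 28.7 and 40.1 in EV and 20.4 and 15.5 in DKO. Over FBXW11, chr5:171302458-171352457 held 35.6 and 23.5 in EV and 14.9 and 18.6 in DKO, and chr5:171352458-171402457 held 34.7 and 33.3 in EV and 16.9 and 17.0 in DKO. The window with the start of FBXW11, chr5:171402458-171452457, held 25.1 and 27.3 in EV against 11.8 and 12.5 in DKO, a log2 fold change of -1.11 with SE 0.27 (edgeR adjusted p = 0.0022). Over STK10, chr5:171452458-171502457 held 29.9 and 25.4 in EV and 12.1 and 10.8 in DKO, and chr5:171502458-171552457 held 13.6 and 14.9 in EV and 4.14 and 8.54 in DKO. Each of these windows lay under every EV library in both DKO libraries. In the 7 windows the DKO to EV ratio of means ran from 0.413 to 0.567. The single lower window further out, chr5:171702458-171752457, between the start of UBTD2 and SH3PXD2B, held 16.1 and 19.0 in EV against 10.6 and 8.75 in DKO, a log2 fold change of -0.86 with SE 0.31 (edgeR adjusted p = 0.038). It lost its call in 13 of 20 alternatives, among them the omission of EV replicate 2 or either DKO library (edgeR adjusted p 0.11 to 0.27).

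Of the 81 fragments of the lost run, 34 had both DKO libraries below both EV libraries (42.0%), 1 had both above (1.2%) and 46 overlapped. Over all 895 fragments within 2 Mb, 13.1% had both below and 22% both above. Most fragments of the lost run were still read in DKO, 72 and 81 of them, against 78 and 65 in EV. The 3 fragments with the largest difference of mean share were chr5:171240880-171249786, chr5:171388970-171404734 and chr5:171482136-171490704. The first held 11.8 and 8.16 reads per 1000 in EV and 3.00 and 4.46 in DKO. The second, within FBXW11, held 3.72 and 9.88 in EV and 0.863 and 0.280 in DKO and had the lowest p of all 789 fragments (log2 -3.57, SE 0.87, edgeR adjusted p = 0.74). The third, within STK10, held 7.94 and 6.37 in EV and 2.02 and 2.51 in DKO. None of the 3 passed the test as a single fragment.

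**Figure D5:**
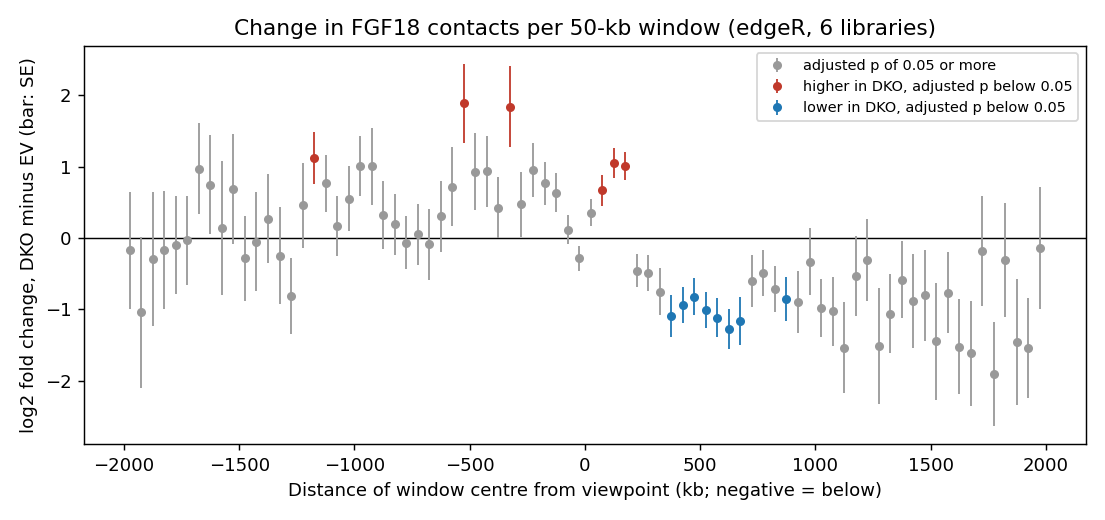
Log2 fold change of DKO against EV in each of 80 windows of 50 kb (edgeR, bars are SE), against the distance of the window centre from the viewpoint in kb. The 6 windows higher in DKO and the 8 lower ones past the adjusted p of 0.05 are coloured, and all 35 windows from 250 kb to 2 Mb above lie under 0.

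Outside the gained run, the direction of the called windows was that of most others on their side. The gained run itself went the other way from the windows further out above. Of 35 windows from 250 kb to 2 Mb above, 28 had both DKO libraries below both EV libraries, 7 overlapped and 0 had both above, with a median log2 of -0.89. Without the 8 called windows among them, 20 of 27 had both DKO libraries below and 7 overlapped, with a median log2 of -0.80. Of 38 windows from 100 kb to 2 Mb below, 16 had both DKO libraries above, 2 both below and 20 overlapped, with a median log2 of 0.37. Without the 3 called windows, these were 13, 2 and 20 of 35, with a median log2 of 0.30. Over all 80 windows the median was -0.21.

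A set of 3 single windows below the viewpoint rose in DKO, from low levels. The window chr5:170302458-170352457, 550 kb below in the first part of RANBP17, held 1.36 and 2.46 reads per 1000 in EV and 7.61 and 6.50 in DKO. The window chr5:170502458-170552457, 350 kb below and also in RANBP17, held 2.47 and 0.947 in EV and 5.32 and 6.96 in DKO. The window chr5:169652458-169702457, 1200 kb below at LCP2, held 7.29 and 4.95 in EV and 11.9 and 14.7 in DKO. The number of fragments with a read in EV differed among them. At 350 kb below, 7 and 1 of 14 fragments had a read in the EV libraries and 10 and 14 in DKO. At 550 kb below the numbers were 6 and 4 of 12 in EV and 11 and 11 in DKO. At 1200 kb below they were 11 and 6 of 12 in EV and 12 and 12 in DKO. In all 3 windows EV replicate 2 read the fewest fragments, as it did within 2 Mb as a whole (445), although its reads there were nearly as many as those of EV replicate 1. The part of this in the 3 rises was not tested. All 3 lost their call when either DKO library was left out (edgeR adjusted p 0.067 to 0.22). The window 550 kb below also lost it without EV replicate 1 (log2 1.52, edgeR adjusted p = 0.060), and those at 350 and 1200 kb below without EV replicate 2. At 350 kb below, the log2 value of 1.84 moved to between 1.31 and 2.70 when 1 library was omitted. The largest differences of mean share here were those of 3 fragments, given per 1000 with raw reads in brackets. The fragment chr5:170317812-170328783 held 0.102 and 0 in EV (7 and 0) and 1.85 and 1.14 in DKO (446 and 309). At chr5:170534098-170541128 it was 1.13 and 0 in EV (77 and 0) and 2.06 and 1.88 in DKO (496 and 512). At chr5:169665691-169669151 it was 0.600 and 0 in EV (41 and 0) and 2.07 and 2.80 in DKO (498 and 761). In each of the 3, EV replicate 2 had no read.

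The 5 fragments with most EV reads all lay within 62.1 kb of the viewpoint and overlapped between the groups. The largest, chr5:170835262-170840025, at the end of NPM1, had 78.0 and 79.3 reads per 1000 in EV and 79.0 and 56.4 in DKO. The next, chr5:170820839-170833077 within NPM1, had 25.8 and 44.1 in EV and 25.3 and 26.5 in DKO. On the other side, chr5:170862833-170866306 within FGF18 had 35.8 and 21.1 in EV and 40.5 and 32.9 in DKO. The groups overlapped in all 5, and their edgeR adjusted p-values were 0.83 to 0.98, which does not show that the levels were equal.

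The authors' deposited table for each library marks the fragments whose reads exceeded their background model. At a deposited q under 0.05, EV libraries had 11 and 5 called fragments within 2 Mb and DKO libraries 8 and 19 (exact two-sided permutation p = 0.667). In the authors' deposited tables all called fragments more than 100 kb away lay above the viewpoint, 2 and 0 in EV and 2 and 7 in DKO. The farthest called fragment above lay at 393 and 12.1 kb in the EV libraries and at 133 and 167 kb in the DKO libraries, per the authors' deposited tables. The 1 fragment called in both DKO libraries and in neither EV library was chr5:170970838-170983335, inside the gained run. The 1 called fragment inside the lost run was chr5:171240880-171249786, in EV replicate 1 (deposited q 0.00028) and in no DKO library.

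Over the whole of chr5, with TMM scaling, 2 of 3091 windows passed edgeR's test (0.0647%), and both belong to the gained run, from 100 to 200 kb above the viewpoint. Both were lost when EV replicate 2 or either DKO replicate was left out, and 14 windows passed without EV replicate 1.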

How the data were processed

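The data are 4C-seq libraries of K562 cells. HindIII and then DpnII cut the chromatin and a MiSeq read the libraries, per the labels' protocols. Bowtie2 2.2.5 and hg19 were used, per the submitters' processing notes. The program that called interactions is not given in the sources used here. Fragments with no read are left out of the files. Read counts per fragment are raw, as deposited by the authors. The authors' column headed RPMs is treated as a score and used for no test. P-values and q-values per fragment are those deposited by the authors.

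Unlisted fragments were counted as 0 and groups came from titles. Fragments within 10 kb of the viewpoint were left out. Counts in 50-kb windows within 2 Mb, over chr5, and in single fragments with at least 10 reads in at least 2 libraries went into the quasi-likelihood test of edgeR 4.0.16, run under R 4.3.3. All 6 libraries shared 1 fit, so S1KO libraries (silencer 1 excised) add to the estimate of the spread. Library size was the reads within 2 Mb (over chr5, all chr5 reads with TMM). P-values were adjusted by Benjamini and Hochberg's method over all features of a test. DESeq2 1.42.0 was an alternative. Group shares got an exact permutation test (scipy 1.17.1, Python 3.11.15). The windows named are those past the threshold, and the fragments named are the 3 with the largest difference of mean share per run (for single windows, the first), the 5 with most EV reads and those the deposited calls single out. The procedures were tested on simulated data. The comparison, its windows and the genes listed were chosen with earlier results of these data known. A test by gene was planned only for hg19 gene positions and was not run. Replicate numbers were not used as pairs.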

Additional observations from a re-analysis of the deposited data

How the results depend on the processing

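Each of the 14 called windows was recomputed under 20 alternatives. Of these 280 values, 205 kept direction and call, 70 kept direction only and 5 reversed. Reversed values were log2 -0.059 and -0.38 at 50 kb, with capped reads and by fragments with at least 1 read, -0.20 at 100 kb by fragments with a read, and -0.10 and -0.38 at 150 kb, with capped reads and by fragments with a read. The cap touched most gained fragments in DKO. Values by fragments with a read were scaled to each library's total of such fragments. At 50 and 150 kb every fragment had a read in every EV and DKO library, so those reversals come from the scaling alone. At 100 kb, 12 and 10 of 13 fragments had a read in EV and 12 and 13 in DKO. The count of 14 windows (6 higher, 8 lower) became 5 (2 and 3) with 25-kb windows, 9 (6 and 3) with capped reads, 0 by fragments with a read (edgeR, 1 at an unadjusted p under 0.05) and 7 (4 and 3) with top fragments removed. TMM gave 11 (6 and 5), size factors of DESeq2 15 (10 and 5), scaling to 10 Mb 17 (10 and 7), scaling to chr5 12 (12 and 0), and the DESeq2 test itself 20 (8 and 12). With 1 library left out it was 4 to 17 (2 to 9 higher, 2 to 8 lower). The replicate block gave 14 (7 and 7), 2 windows over chr5 and 0 fragments (edgeR, 30 at an unadjusted p under 0.05). Deviations of equal numbers correlated at -0.21 between EV and DKO, so the crossed pairing was added after seeing the data, and it gave 23 windows within 2 Mb (10 and 13) and 10 over chr5, all higher. The 2 windows over chr5 became 31 (9 and 22) with DESeq2, 5 (4 and 1) without TMM, 0 in windows of 100 kb (edgeR, 71 with an unadjusted p under 0.05) or with EV and DKO alone (edgeR, 80 such windows), and 0 to 14 with 1 library left out. For fragments, DESeq2 called 13 (7 and 6), and without the filter edgeR called 1, a lower one. The DKO minus EV difference 10 to 100 kb below, -21.2 per 1000, was 25.5 as a share of chr5 reads and 6.07 with a 50-kb zone. At 10 to 100 kb above, 46.4 became -6.23 per 1000 fragments with a read and -10.2 with capped reads. At 100 to 250 kb above, 75.1 became -13.8 and -6.48. The plain number of fragments with a read was 15 and 14 in EV and 15 and 15 in DKO in the nearer band. In the farther band it was 34 and 32 in EV and 34 and 35 in DKO. The negative signs by fragments thus come from the scaling to all fragments with a read. The cause of the other changes was not tested. The test by gene was not run. Single fragments with a read held a median of 35 and 60 reads in EV, and EV replicates 1 and 2, at nearly equal reads within 2 Mb, read 77.3% and 48.5% of the fragments.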

Other observations

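Positions of the excised silencers are not in the labels, so the data were searched for losses of whole fragments. An excision inside a fragment, within 10 kb of the viewpoint or in an unlisted interval could go unseen. The search therefore does not place the silencers. Within 250 kb of the viewpoint, 0 of 112 fragments had at least 10 reads in both EV libraries and none in either DKO library. Within 2 Mb, 3 of 895 did, chr5:169518970-169520151 with 61 and 33 reads in EV, chr5:172527999-172528871 with 10 and 33, and chr5:172744463-172746730 with 46 and 95. The second also had no read in either S1KO library, and the first and the third had reads in S1KO replicate 1 only. The DKO libraries read 691 and 813 of 917 fragments within 2 Mb. Whether any of the 3 was excised was not tested. The reverse pattern, at least 10 reads in both DKO libraries and none in EV, was found for 50 of 895 fragments, 41 below the viewpoint and 9 above. The DKO libraries had more reads within 2 Mb, and EV left more fragments unread below than above. From 250 to 500 kb, the EV libraries read 48 and 18 of 73 fragments below and 52 and 44 of 57 above. From 500 to 1000 kb they read 87 and 58 of 114 below and 113 and 84 of 122 above. The part of this in the 41 and 9 was not tested. The viewpoint fragment itself held 5073 and 13074 reads in EV and 49129 and 19661 in DKO. Reads within 2 Mb made up 9.64% and 3.41% of all reads in EV and 13.7% and 20.9% in DKO.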
